A study of Mus musculus with 56 samples.

Results

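The glycolysis and hypoxia response genes described here are 35 mouse genes taken by symbol from a named list, whatever their values, and all 35 were found among the 52636 genes of the heart table and the 57010 genes of the table of bone, muscle and skin. By role, 4 of them bring glucose into the pathway (Slc2a1, Hk1, Hk2 and Hk3), 7 carry out its upper steps (Gpi1, Pfkl, Pfkp, Pfkm, Aldoa, Aldoc and Tpi1), 2 set the level of fructose 2,6-bisphosphate (Pfkfb3 and Pfkfb4) and 5 carry out its lower steps (Gapdh, Pgk1, Pgam1, Eno1 and Pkm). A further 3 make or carry lactate (Ldha, Slc16a1 and Slc16a3), and 14 belong to the response to low oxygen (Hif1a, Egln3, Bnip3, Ndrg1, Vegfa, Adm, Ankrd37, Mif, Pdk1, P4ha1, P4ha2, Higd1a, Hilpda and Kdm3a). They were measured by bulk RNA sequencing of monocytes and macrophages sorted from injured tissue, in 56 libraries of 16 groups. The mice were 10 weeks old, and each received 1 injury: a myocardial infarction in the heart, a cranial defect in bone, a volumetric loss of muscle, or a full-thickness punch through the skin. The depleted arm, labelled FDG+DT, was Foxp3(DTR/GFP) mice, whose regulatory T cells (Tregs) carry a receptor for diphtheria toxin, and the control arm, labelled WT+DT, was wild-type C57BL/6J mice. Both arms were given 20 ng/g of the toxin, from 2 days before injury and then every 2 days for 1 week after it, so the receptor genotype and the loss of Tregs cannot be told apart. Cells came from heart on days 4 and 7 (3 libraries a group), from bone on days 7 and 10 (5 and 3 a group), from muscle on days 4 and 7 (3 a group) and from skin on days 4 and 7 (4 a group). The bone labels give days 7 and 10, whereas the series description speaks of days 4 and 7 for every tissue, and the labels are followed here. Whether each library is a different animal is not stated in the labels, and the p-values therefore speak only of the spread from library to library.

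Glycolysis turns glucose into pyruvate and gains ATP without oxygen. Glucose enters through transporters such as Slc2a1 (GLUT1), is trapped by hexokinases, split into smaller sugars and carried to pyruvate, which Ldha reduces to lactate for export by the transporters Slc16a1 (MCT1) and Slc16a3 (MCT4). When oxygen is short, or when macrophages are activated by inflammatory signals, the transcription factor HIF-1, whose oxygen-regulated subunit is encoded by Hif1a, accumulates and binds short DNA elements near its targets. These targets include most enzymes of glycolysis, the angiogenic factor Vegfa, the prolyl hydroxylase Egln3, which marks HIF for breakdown, and enzymes of collagen and lipid metabolism. Monocytes that enter a wound are known to rely on glycolysis during inflammation and to shift toward oxidative metabolism as repair proceeds.

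For 13 of the 35 members, at least 0.05 of the 31-base words of the transcripts are also found in another gene of the annotation, mostly processed pseudogenes: Gpi1, Pfkm, Aldoa, Tpi1, Gapdh, Pgk1, Pgam1, Eno1, Pkm, Ldha, Bnip3, Mif and Higd1a. Their reads can be split between the gene and its copies, so their values are uncertain. Counts without them are given as well for depletion in muscle and bone on day 7. In heart, they are given for depletion on day 4 and for time. Other counts include the members with copies unless stated. In the heart table this mattered most. The 3 control libraries of heart day 4 held 30.6% to 31.0% of their counts in genes with such copies and 6.68% to 7.31% in ribosomal protein genes, against 22.0% to 25.2% and 2.35% to 2.82% in the other heart libraries. Gapdh stood at 204, 211 and 214 CPM (counts scaled to library size in the usual unit) in those 3 libraries and at 1.11 to 5.75 CPM in the other 9 although the enzyme is abundant in most cells. The heart columns name a group but no replicate number, and the second set of heart columns names no day and was taken as day 7. A library of heart held 2642452 to 9788811 counts, a library of bone 2318268 to 5835113, a library of muscle 3439692 to 6397434 and a library of skin 3013776 to 5392932. All 12 markers of monocytes and macrophages had counts in every group, and their summed level was between 10169 and 35650 CPM in every group's libraries. CPM values are scaled within each tissue by the trimmed mean of M values (TMM), and a difference is called where the p of edgeR's quasi-likelihood test, adjusted by the Benjamini-Hochberg method over all genes tested, is below 0.05.

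Sequence stretches just upstream of the start site are shown for 6 of the members named below: Hk3, Ldha, Slc16a3, Egln3, P4ha1 and P4ha2. They come from RefSeq's GRCm38.p6 annotation, run 5′ to 3′ on the strand of the gene, and are cut before any annotated exon. Capitals mark the letters ACGTG, the core of the hypoxia response element, on either strand (CACGT on the opposite one). Where the letters read CACGTG, both strands hold them, and they are also the E-box bound by other factors.
Hk3, chr13:55021386-55021635, minus strand: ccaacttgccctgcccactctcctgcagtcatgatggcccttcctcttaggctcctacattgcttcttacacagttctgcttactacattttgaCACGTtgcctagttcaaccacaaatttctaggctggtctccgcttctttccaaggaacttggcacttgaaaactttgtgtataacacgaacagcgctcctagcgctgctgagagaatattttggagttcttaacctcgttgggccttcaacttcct
Ldha, chr7:46845554-46845803, plus strand: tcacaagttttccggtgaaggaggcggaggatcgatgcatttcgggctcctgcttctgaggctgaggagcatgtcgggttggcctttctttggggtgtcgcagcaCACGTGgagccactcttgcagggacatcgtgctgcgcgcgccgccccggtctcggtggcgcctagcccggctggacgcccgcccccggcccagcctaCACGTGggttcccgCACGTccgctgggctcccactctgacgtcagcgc
Slc16a3, chr11:120948817-120949052, plus strand: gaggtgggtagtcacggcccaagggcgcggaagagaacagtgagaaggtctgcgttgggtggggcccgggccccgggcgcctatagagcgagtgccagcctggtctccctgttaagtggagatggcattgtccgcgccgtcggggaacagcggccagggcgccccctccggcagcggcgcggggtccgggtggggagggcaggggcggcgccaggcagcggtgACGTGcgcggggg
Egln3, chr12:54203875-54204124, minus strand: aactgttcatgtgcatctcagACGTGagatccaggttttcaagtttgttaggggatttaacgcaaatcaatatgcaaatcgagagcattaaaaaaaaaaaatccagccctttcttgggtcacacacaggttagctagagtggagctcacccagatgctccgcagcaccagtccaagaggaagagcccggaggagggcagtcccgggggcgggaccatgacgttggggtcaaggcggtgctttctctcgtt
P4ha1, chr10:59323046-59323295, plus strand: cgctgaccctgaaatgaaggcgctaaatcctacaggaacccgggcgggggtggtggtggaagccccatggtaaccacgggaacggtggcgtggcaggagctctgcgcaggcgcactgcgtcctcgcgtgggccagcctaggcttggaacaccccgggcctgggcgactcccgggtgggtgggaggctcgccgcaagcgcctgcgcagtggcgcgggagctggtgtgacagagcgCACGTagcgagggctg
P4ha2, chr11:54100674-54100923, plus strand: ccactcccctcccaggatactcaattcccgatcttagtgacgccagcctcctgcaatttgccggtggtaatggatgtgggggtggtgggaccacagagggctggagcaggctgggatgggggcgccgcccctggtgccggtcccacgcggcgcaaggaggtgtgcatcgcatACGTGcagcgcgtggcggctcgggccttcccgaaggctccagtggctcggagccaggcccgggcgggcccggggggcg
The stretch of Ldha, the enzyme that makes lactate, held more of these letters than the other 5 shown. Of the 34 members with a RefSeq promoter entry, 20 (58.8%) had ACGTG on either strand within the 300 bases from 250 before to 50 after the start, against 5315 of 27025 promoters of all genes (19.7%). The related letters GCGTG, whose first or last base can also belong to an ACGTG, were found in 19 of the 34 (55.9%) and in 32.5% of all promoters. The printed stretches of Slc16a3, P4ha2 and Ldha lie inside the genes as GENCODE M21 draws them, downstream of an earlier annotated start. Each of the 6 stretches shown holds ACGTG. The 300 bases of Vegfa and Hilpda, which are among the members with large changes below, held no ACGTG, and those of Vegfa no GCGTG. A match to these letters is a description of the sequence and no evidence of binding. Ndrg1 is named only.

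Across the 8 comparisons of depleted with control cells, 29 of the 34 members tested in every one (85.3%) passed the test at least once, against 4535 of 9677 genes tested in every one (46.9%). Of the 34 members, 15 were higher in one comparison and lower in another (44.1%, against 4.65% of those genes). For Gpi1, Gapdh, Pgk1, Pgam1, Pkm and Higd1a among these 15, the only lower call was in heart on day 4. These genes have copies, and the heart day 4 control libraries are those that stood apart. In muscle on day 7, 20 of the 34 members tested rose and none fell, where 4.67% of all genes tested were called higher and 3.92% lower. In bone on day 7, 1 of 34 rose and 15 fell, against 11% and 12.6% of all genes. In bone on day 10, 2 rose and 6 fell (8.95% and 8.22% of all genes). In heart on day 4, none rose and 11 fell (4.25% and 6.85%), and 9 of those 11 have copies. In heart on day 7, none rose and 2 fell (1.58% and 1.56%). In skin, 2 of 35 rose and none fell on day 4 (2.12% and 1.45%) and again 2 rose and none fell on day 7 (2.95% and 3.27%). In muscle on day 4, no member passed, as was the case for nearly all genes (0.155% called in either direction). The 6 members that passed in none of the 8 comparisons were Hk1, Pfkm, Aldoc, Ndrg1, Adm and Kdm3a. Because Adm, which encodes the vasodilator peptide adrenomedullin, passed the filter on low counts only in skin, 34 members were tested elsewhere.

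**Figure D1:**
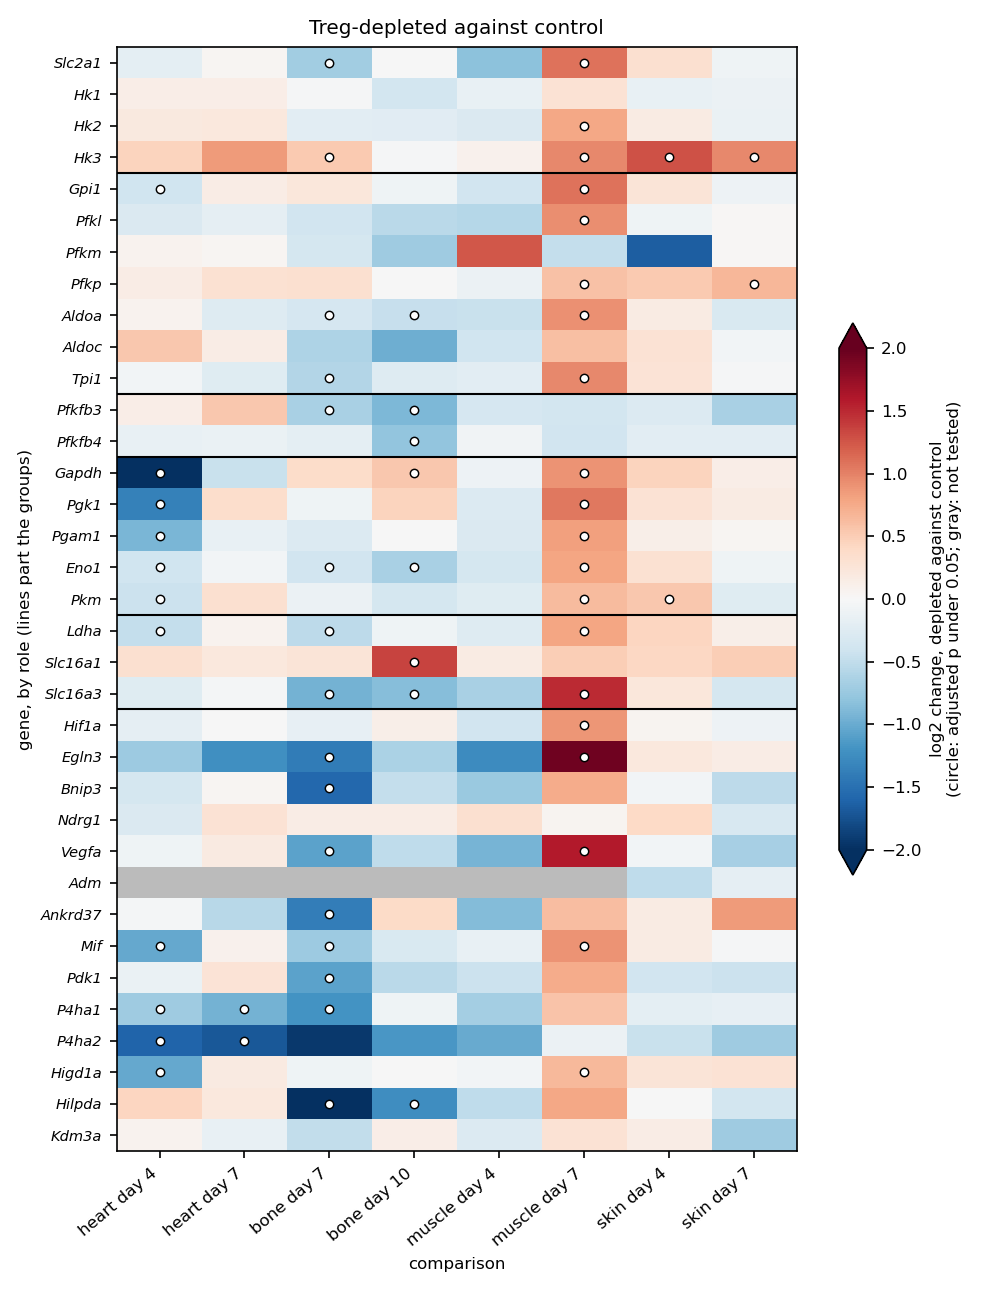
Log2 change, depleted minus control, of the 35 members (one line each, ordered by role) in the 8 comparisons of tissue and day (columns). The color scale ends at 2 in either direction, circles mark changes with an adjusted p below 0.05, and gray marks Adm where it was not tested. The column of muscle day 7 holds 20 higher members and that of bone day 7 holds 15 lower ones.

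In muscle on day 7, the cells of depleted mice held more RNA of nearly the whole path from glucose to lactate. The median log2 change of the 34 members was 0.77, with that of all genes tested at -0.01. Among the genes of glucose entry, 3 of 4 rose. The glucose transporter Slc2a1 (ENSMUSG00000028645, GRCm38 chromosome 4, 119108711 to 119137983) was measured at 46.6, 48.3 and 56.3 CPM in the depleted and 26.6, 22 and 22.4 CPM in the control libraries (log2 change 1.09, SE 0.24, adjusted p = 0.00612). Hk3 (ENSMUSG00000025877, GRCm38 chromosome 13, 55005985 to 55021385), the hexokinase most typical of myeloid cells, stood at 63.2, 61.5 and 83 CPM in the depleted and 38, 32.6 and 35.8 CPM in the control libraries (log2 change 0.96, SE 0.18, adjusted p = 0.00248). For both genes every depleted library lay above every control library. Hk2, the inducible hexokinase, rose by less (log2 change 0.77, SE 0.18), and the change of Hk1, the constitutive hexokinase, did not pass.

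Of the 7 genes of the upper steps, 5 rose in muscle on day 7. Gpi1, the isomerase of glucose 6-phosphate, was at 403, 555 and 568 CPM in the depleted and 274, 226 and 217 CPM in the control libraries (log2 change 1.09, SE 0.15, adjusted p = 0.000115). Pfkl, the liver-type subunit of phosphofructokinase, was at 44.5, 56.8 and 56.1 CPM in the depleted and 31.6, 27.9 and 22.4 CPM in the control libraries (log2 change 0.93, SE 0.19, adjusted p = 0.00428). Aldoa, the aldolase found in most cells, was at 1512, 2157 and 1866 CPM in the depleted and 1035, 899.6 and 987 CPM in the control libraries (log2 change 0.92, SE 0.15, adjusted p = 0.000635). The depleted libraries were the higher ones for all 3 genes, without overlap. Tpi1, the triose phosphate isomerase, was at 423, 408 and 606 CPM in the depleted and 296, 214 and 231 CPM in the control libraries (log2 change 0.96, SE 0.18, adjusted p = 0.00192), again without overlap. Pfkp, the platelet-type subunit, was at 146, 163 and 168 CPM in the depleted and 135, 83 and 99.2 CPM in the control libraries (log2 change 0.59, SE 0.18, adjusted p = 0.0471), while Pfkm and Aldoc did not pass. Neither of the genes of fructose 2,6-bisphosphate passed: the log2 change was -0.37 for Pfkfb3 and -0.39 for Pfkfb4, both on the negative side.

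All 5 genes of the lower steps rose in muscle on day 7. Gapdh, which oxidizes glyceraldehyde 3-phosphate, was at 1412, 1548 and 1873 CPM in the depleted and 939.9, 821 and 838 CPM in the control libraries (log2 change 0.89, SE 0.13, adjusted p = 0.000316). Pgk1, the first ATP-forming enzyme of the path, was at 294, 365 and 369.5 CPM in the depleted and 188, 179.9 and 127 CPM in the control libraries (log2 change 1.05, SE 0.18, adjusted p = 0.00132). Eno1, the enolase, was at 1125, 1521 and 1278 CPM in the depleted and 825, 689 and 762 CPM in the control libraries (log2 change 0.79, SE 0.15, adjusted p = 0.00219). For these 3 enzymes the lowest depleted library was above the highest control library. Pkm, the pyruvate kinase, was at 622, 742 and 798 CPM in the depleted and 451, 515 and 421 CPM in the control libraries (log2 change 0.64, SE 0.14, adjusted p = 0.00565). Pgam1, the phosphoglycerate mutase, was at 164, 178 and 195 CPM in the depleted and 108, 109 and 86 CPM in the control libraries (log2 change 0.82, SE 0.15, adjusted p = 0.00138), and neither of these overlapped between the arms. All 5 have copies elsewhere in the genome. Without the members that have copies, 9 of 21 members tested rose and none fell, and 9.2% of all tested genes without copies were called in either direction.

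Among the lactate genes, 2 of 3 rose in muscle on day 7. Ldha (ENSMUSG00000063229, GRCm38 chromosome 7, 46841475 to 46855627), whose upstream stretch is printed above, stood at 1340, 1410 and 1422 CPM in the depleted and 894, 694 and 819 CPM in the control libraries (log2 change 0.79, SE 0.14, adjusted p = 0.00165). Slc16a3 (ENSMUSG00000025161, GRCm38 chromosome 11, 120948480 to 120960868), the lactate exporter MCT4, stood at 238, 504 and 385 CPM in the depleted and 140.1, 136 and 126 CPM in the control libraries (log2 change 1.48, SE 0.26, adjusted p = 0.00168). The 3 control libraries of Slc16a3 lay close together and below all 3 depleted ones, which were spread more widely. Slc16a1, the transporter MCT1, which also imports lactate, was low, at 3.71 to 5.45 CPM in depleted and 2.07 to 4.72 CPM in control libraries, and did not pass.

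Of the 13 hypoxia response members tested, 5 rose in muscle on day 7. Egln3 (ENSMUSG00000035105, GRCm38 chromosome 12, 54178981 to 54203860), the HIF prolyl hydroxylase that HIF itself induces, was at 9.88, 27.1 and 14.5 CPM in the depleted and 5.16, 3.9 and 3.88 CPM in the control libraries (log2 change 1.95, SE 0.51, adjusted p = 0.0236). Vegfa (ENSMUSG00000023951, GRCm38 chromosome 17, 46016993 to 46032369), the main growth factor of blood vessels, was at 29.3, 71.1 and 47.6 CPM in the depleted and 11.8, 23.2 and 13.7 CPM in the control libraries (log2 change 1.58, SE 0.33, adjusted p = 0.00575). Depleted replicate 2 was the highest of the 6 libraries for both, and the groups did not overlap. Mif, a cytokine that holds monocytes at sites of inflammation, was at 292, 284 and 412 CPM in the depleted and 192, 164 and 171 CPM in the control libraries (log2 change 0.90, SE 0.17, adjusted p = 0.00177). Higd1a, a mitochondrial protein, was at 305, 326 and 318 CPM in the depleted and 207, 189.5 and 210.3 CPM in the control libraries (log2 change 0.65, SE 0.12, adjusted p = 0.00265). Hif1a rose by 0.88 (SE 0.26, adjusted p = 0.0417), so the transcript of the factor itself was higher too. Bnip3, Ndrg1, Ankrd37, Pdk1, P4ha1, P4ha2, Hilpda and Kdm3a did not pass, with log2 changes from -0.11 to 0.78.

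**Figure D2:**
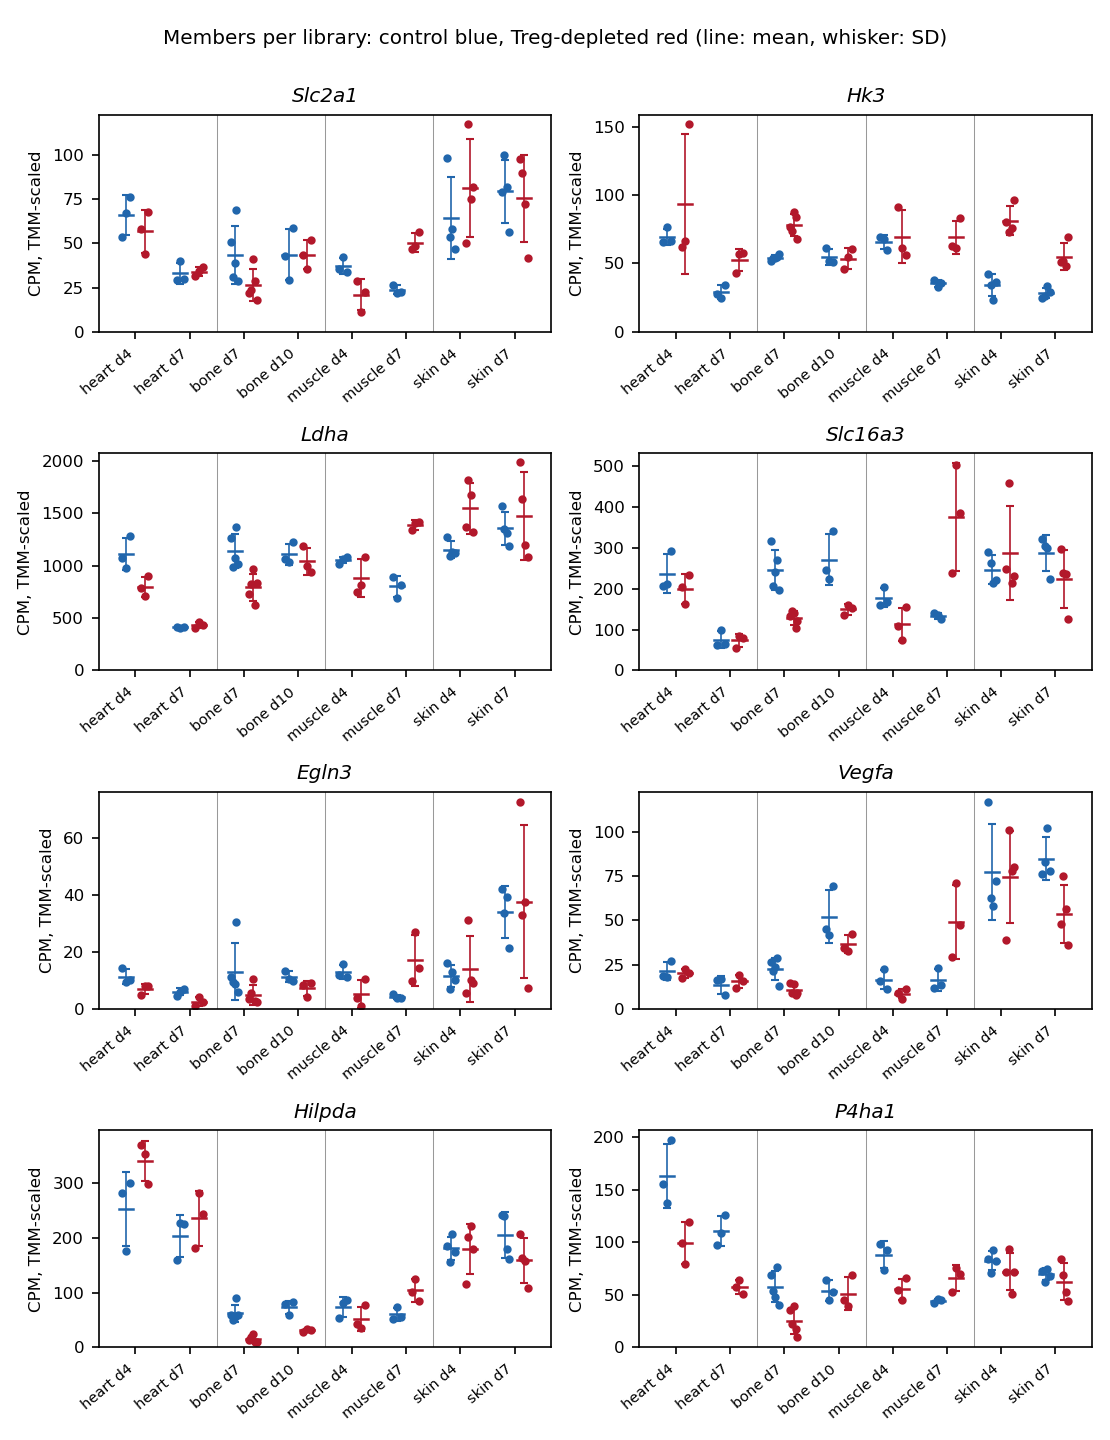
CPM of 8 members in every library (points), with the mean (bar) and SD (whisker) of each group, for the depleted and control arms of the 8 tissue and day pairs. For Slc16a3 in muscle day 7 the 3 depleted libraries lie between 238 and 504 CPM and the 3 control libraries between 126 and 140 CPM.

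Other measures moved with the arms in muscle on day 7. The summed level of 14 neutrophil markers was 166 to 213 CPM in control and 1089 to 2930 CPM in depleted libraries, all 14 had counts in both groups, and 7 of the 11 tested rose. The summed level of 12 resident macrophage markers went the other way, from 4208 to 6218 CPM in control and from 2979 to 3854 CPM in depleted libraries, with 5 of 11 tested lower. Also without overlap, markers of monocytes and macrophages summed to 13700 to 17241 CPM in control and 11185 to 11380 CPM in depleted libraries. Markers of skeletal muscle fibres stood at 114 to 146 CPM and 48.0 to 75.2 CPM, and cell cycle genes at 483 to 610 CPM and 390.0 to 456.7 CPM. In bulk RNA, fewer cells of a type and less RNA per cell cannot be told apart. Counts on Rn18s-rs5, a ribosomal RNA repeat, were 5916 to 9928 CPM in control and 16276 to 46905 CPM in depleted libraries, and with this level as a covariate, a setting chosen after the data were seen, 11 of the 20 members still rose. The 9 that did not pass with it were Aldoa, Egln3, Eno1, Hif1a, Pfkl, Pfkp, Pkm, Slc16a3 and Vegfa. The part of these measures in the change of the members was not tested. With each library left out in turn, 16 of the 20 calls held. The call of Egln3 was lost without any 1 of depleted replicate 2 and control replicates 1, 2 and 3. The call of Hif1a was lost without any 1 of depleted replicates 2 and 3 and control replicates 1 and 3. The call of Hk2 was lost without any 1 of depleted replicate 3 and control replicate 2. The call of Pfkp was lost without any 1 of depleted replicates 1, 2 and 3 and control replicates 2 and 3.

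On day 4 after muscle injury the picture was different. No member passed edgeR's quasi-likelihood test, 14 of 34 had an unadjusted p below 0.05 (8.44% of all genes did), and DESeq2 called 1. The quasi-likelihood test without a filter on low counts called 7 members, so the absence of calls depends on that filter. The median log2 change was -0.32, with 30 of 34 members on the negative side. Slc16a3 was at 109.7, 73.6 and 155 CPM in the depleted and 161, 204 and 168 CPM in the control libraries, and Egln3 at 3.96, 1.17 and 10.6 CPM in the depleted and 11.8, 15.7 and 11.3 CPM in the control libraries. The groups of Egln3 did not overlap, with every depleted library below every control one, but its change (log2 -1.26, SE 0.49, adjusted p = 0.47) missed the threshold. The neutrophil markers were at 156 to 187 CPM in control and 159 to 210 CPM in depleted libraries, with Ly6g at 0 in both groups. Fibroblast markers summed to 178 to 298 CPM in control and 99.2 to 137 CPM in depleted libraries, erythroid markers to 447 to 1120 CPM and 149.7 to 195.6 CPM, and cell cycle genes to 444 to 509 CPM and 571 to 626 CPM. Their part in the values of the members was not tested.

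The change with depletion differed between the 2 days of muscle for 19 of 34 members, all of them more positive on day 7, where 1.59% of all genes differed in this direction and 0.821% in the other. The difference of the log2 changes was 3.21 for Egln3 (SE 0.71, adjusted p = 0.0248), 2.51 for Vegfa (SE 0.49, adjusted p = 0.0123) and 2.14 for Slc16a3 (SE 0.36, adjusted p = 0.00625). Slc2a1, the glucose transporter, differed by 1.91 (SE 0.33). Bnip3, a mitophagy receptor, and P4ha1, a collagen prolyl hydroxylase, differed by 1.48 and 1.25, although neither passed on day 7 itself. Of the 19, Gpi1, Aldoa, Tpi1, Gapdh, Pgk1, Pgam1, Eno1, Pkm, Ldha, Bnip3, Mif and Higd1a have copies. Without control replicate 3 of day 7 the count was 12, and 12 members passed with each library left out: Aldoa, Eno1, Gapdh, Gpi1, Ldha, P4ha1, Pfkl, Pgam1, Pgk1, Slc16a3, Slc2a1 and Vegfa. Within the depleted arm, 21 members were higher and none lower on day 7 than on day 4 (10.7% and 8.72% of all genes). Vegfa changed most, with 8.75, 5.84 and 11.2 CPM on day 4 and 29.3, 71.1 and 47.6 CPM on day 7 (log2 change 2.49, SE 0.35). In the depleted arm, marker sums changed between day 4 and day 7 as well: for fibroblasts they were 99.2 to 137 CPM and 1159 to 1492 CPM, for neutrophils 159 to 210 CPM and 1089 to 2930 CPM, and for resident macrophages 4662 to 6870 CPM and 2979 to 3854 CPM. Their part in the changes of the members was not tested. Of the 21 calls 14 held with each library left out, and those of Egln3, Gapdh, Hilpda, Mif, P4ha2, Pgam1 and Tpi1 were each lost without day 4 depleted replicate 2, among others. Within the control arm 1 member was higher and 6 lower on day 7 (4.49% and 2.75%): Pfkp rose, and Bnip3, P4ha1, Hk3, Tpi1, Pgam1 and Gapdh fell. The control count of 7 was 4 without day 4 control replicate 2 and 3 without day 7 control replicate 3.

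In bone on day 7, 15 members fell with depletion, and most of the large changes were among the hypoxia response genes, where 8 of 13 tested fell. The median log2 change of the 34 members was -0.38. Hilpda (ENSMUSG00000043421, GRCm38 chromosome 6, 29272488 to 29275446), which blocks the breakdown of lipid droplets, was at 13.5, 18.3, 23.8, 9.45 and 9.74 CPM in the depleted and 59.2, 49.4, 56, 89.7 and 58.9 CPM in the control libraries (log2 change -2.05, SE 0.22, adjusted p = 1.94e-06). Bnip3 was at 28.2, 31.3, 37.8, 12.8 and 20.6 CPM in the depleted and 84, 64, 75.6, 101 and 62.5 CPM in the control libraries (log2 change -1.57, SE 0.22, adjusted p = 3.07e-05). P4ha1 (ENSMUSG00000019916, GRCm38 chromosome 10, 59323296 to 59373304) was at 35.4, 22, 39.7, 17.8 and 10.3 CPM in the depleted and 68.8, 53.7, 48, 76.7 and 40.8 CPM in the control libraries (log2 change -1.20, SE 0.28, adjusted p = 0.00394). In each case all 5 depleted libraries lay below all 5 control libraries. Pdk1, a kinase that inhibits pyruvate dehydrogenase, was at 9.17, 16.5, 16.9, 10.6 and 7.45 CPM in the depleted and 30.6, 24, 27.3, 22.5 and 24 CPM in the control libraries (log2 change -1.08, SE 0.23, adjusted p = 0.00167), and Mif was at 173, 183, 214, 120.3 and 114 CPM in the depleted and 275, 244, 240.2, 323 and 244 CPM in the control libraries (log2 change -0.72, SE 0.15, adjusted p = 0.00154), both without overlap. Vegfa was at 14.6, 9.16, 13.9, 7.85 and 8.88 CPM in the depleted and 26.7, 21.2, 23.7, 28.8 and 12.7 CPM in the control libraries (log2 change -1.07, SE 0.23, adjusted p = 0.00167), and Egln3 at 3.49, 5.68, 10.5, 2.72 and 2.29 CPM in the depleted and 11.1, 9.41, 8.66, 30.6 and 5.89 CPM in the control libraries (log2 change -1.39, SE 0.43, adjusted p = 0.0236). The groups of Vegfa and of Egln3 overlapped, and control replicate 4 was the highest library for Egln3. Ankrd37, a small ankyrin repeat protein, also fell with overlap (log2 change -1.38, SE 0.46). P4ha2, the second collagen prolyl hydroxylase, ranged from 0.641 to 20.1 CPM in depleted and from 7.25 to 59.5 CPM in control libraries and did not pass (log2 change -1.94, SE 0.70).

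The glycolytic members of bone on day 7 moved less. Slc16a3 was at 133, 146, 140.3, 103 and 121 CPM in the depleted and 317, 207, 242, 271 and 198 CPM in the control libraries (log2 change -0.94, SE 0.15, adjusted p = 7.56e-05), with no overlap between the arms. Ldha was at 735, 824, 969, 621 and 835 CPM in the depleted and 1262, 989.6, 1074, 1366 and 1014 CPM in the control libraries (log2 change -0.52, SE 0.13, adjusted p = 0.00489), and Eno1 at 741, 1019, 1051, 782 and 1087 CPM in the depleted and 1314, 1104, 1333, 1158 and 1181 CPM in the control libraries (log2 change -0.38, SE 0.13, adjusted p = 0.0369), again without overlap. Pfkfb3, the kinase that raises fructose 2,6-bisphosphate and so drives phosphofructokinase, was at 24.7, 30.2, 27.8, 19.2 and 30.4 CPM in the depleted and 32, 48.4, 54.6, 36.9 and 34.9 CPM in the control libraries (log2 change -0.65, SE 0.18, adjusted p = 0.0112). Aldoa was at 1140, 1504, 1646, 1155 and 1415 CPM in the depleted and 1682, 1726, 1855, 1707 and 1717 CPM in the control libraries (log2 change -0.34, SE 0.12, adjusted p = 0.0389). In both genes every control library was above every depleted one. Tpi1 was at 233, 218, 294, 161 and 188 CPM in the depleted and 380.3, 282, 274, 436 and 275 CPM in the control libraries (log2 change -0.59, SE 0.16, adjusted p = 0.00926), and Slc2a1 at 21.8, 23.8, 41.1, 28.8 and 17.8 CPM in the depleted and 50.8, 31, 38.7, 68.6 and 28.6 CPM in the control libraries (log2 change -0.70, SE 0.25, adjusted p = 0.0488), both with overlap. Hk3 was the 1 member that rose, at 77.1, 74, 88, 84.2 and 67.9 CPM in the depleted and 51.5, 54.3, 54, 54.9 and 57.1 CPM in the control libraries (log2 change 0.53, SE 0.12, adjusted p = 0.0025), with every depleted library above every control one. Of the lower steps, Gapdh, Pgk1, Pgam1 and Pkm did not pass. Without the members that have copies, 1 of 21 rose and 9 fell, against 25.1% of tested genes without copies called in either direction.

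The calls of Bnip3, Hilpda, Hk3, Ldha, Mif, P4ha1, Pdk1, Pfkfb3, Slc16a3, Tpi1 and Vegfa in bone on day 7 held with each library left out. That of Aldoa was lost without any 1 of depleted replicates 1, 4 and 5 and control replicates 1, 2, 3 and 5. That of Ankrd37 was lost without any 1 of depleted replicates 1, 2, 4 and 5 and control replicates 1 and 4. That of Egln3 was lost without any 1 of depleted replicates 1, 4 and 5 and control replicate 4. That of Eno1 was lost without any 1 of depleted replicates 1 and 4 and control replicates 1, 3 and 5. That of Slc2a1 was lost without any 1 of depleted replicates 1, 2, 4 and 5 and control replicates 1, 3 and 4. With Rn18s-rs5 as a covariate, 6 members fell and none rose: Bnip3, Hilpda, Mif, Pfkfb3, Slc16a3 and Vegfa. Rn18s-rs5 itself was at 13800 to 86315 CPM in control and 48752 to 107580 CPM in depleted libraries. Neutrophil markers summed to 6054 to 13990 CPM in control and 9416 to 29065 CPM in depleted libraries, with all 14 detected in both and 6 of 14 tested higher. Fibroblast markers summed to 1010 to 3669 CPM and 129 to 1488 CPM, with 2 of 8 lower, and resident macrophage markers to 1896 to 2658 CPM and 885 to 1186 CPM, with 7 of 11 lower. Cell cycle genes summed to 858 to 1270 CPM and 2163 to 3104 CPM, and all 20 tested were higher in the depleted arm. T and NK cell markers summed to 72.2 to 117 CPM in control and 183 to 364 CPM in depleted libraries. Markers of monocytes and macrophages overlapped between the arms, with means of 21152 CPM in control and 13391 CPM in depleted libraries. The part of these cell types in the changes of the members was not tested.

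**Figure D3:**
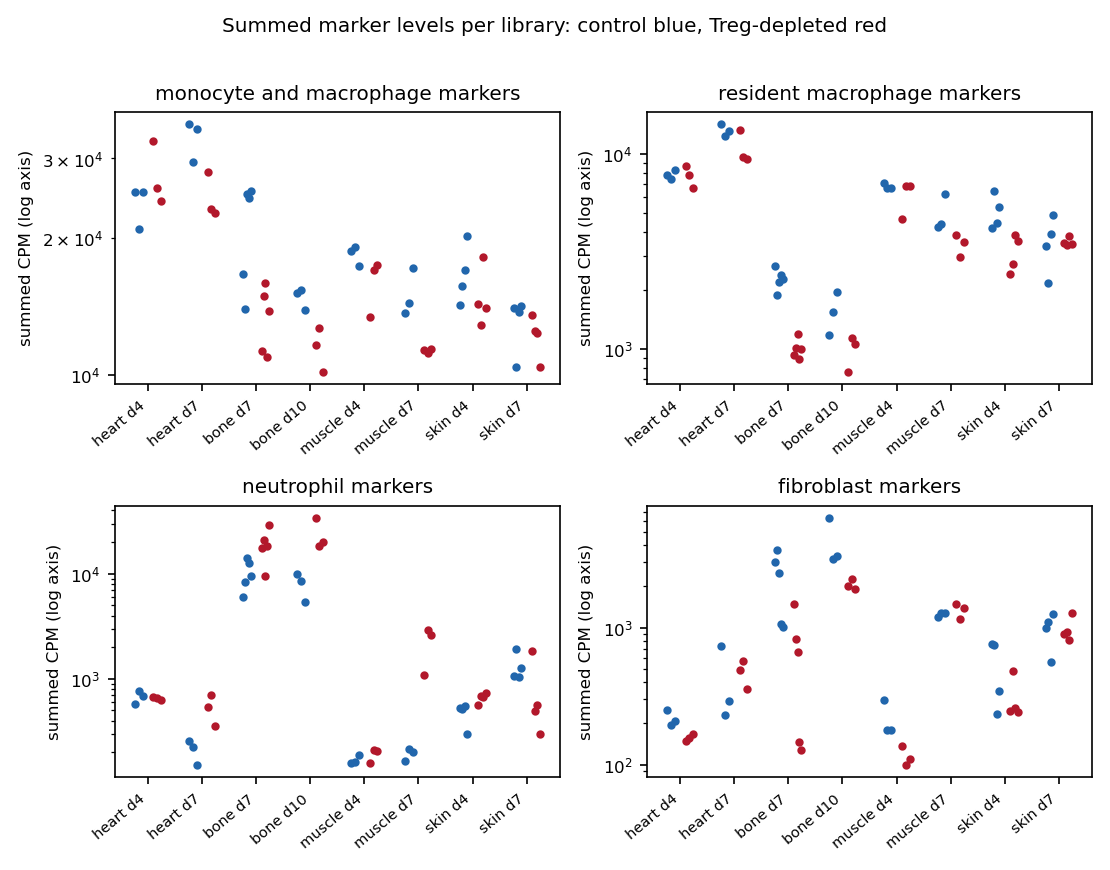
Summed CPM on a log axis of the marker lists for monocytes and macrophages, resident macrophages, neutrophils and fibroblasts in every library (points), by tissue, day and arm. In muscle on day 7 the neutrophil sums of the 3 depleted libraries, 1089 to 2930 CPM, lie above those of the 3 control libraries, 166 to 213 CPM.

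In bone on day 10 the members split less clearly. Hilpda was at 28.1, 33 and 32.6 CPM in the depleted and 78.5, 59.8 and 82.2 CPM in the control libraries (log2 change -1.23, SE 0.28, adjusted p = 0.00565), and Slc16a3 at 135, 159.6 and 154 CPM in the depleted and 246, 224 and 342 CPM in the control libraries (log2 change -0.86, SE 0.19, adjusted p = 0.00433). Both were lower in every depleted library, as on day 7, and these calls held with each library left out. Pfkfb3 was at 20.5, 31.6 and 30.9 CPM in the depleted and 47.1, 48 and 59.8 CPM in the control libraries (log2 change -0.89, SE 0.24, adjusted p = 0.0131). Eno1 was at 632, 801 and 549 CPM in the depleted and 941, 1162 and 1018 CPM in the control libraries (log2 change -0.65, SE 0.17, adjusted p = 0.011). Aldoa was at 1071, 1175 and 842 CPM in the depleted and 1371, 1391 and 1478 CPM in the control libraries (log2 change -0.46, SE 0.15, adjusted p = 0.0417). The arms of these 3 genes did not overlap, whereas those of Pfkfb4, the testis-type form of the Pfkfb3 enzyme, did (log2 change -0.78, SE 0.25). On the higher side, Slc16a1 was at 24.9, 21.3 and 23.9 CPM in the depleted and 7.26, 7.13 and 13.4 CPM in the control libraries (log2 change 1.35, SE 0.38, adjusted p = 0.0191), so that the transporters Slc16a1 and Slc16a3 moved in opposite directions. Gapdh was at 2015, 1836 and 1745 CPM in the depleted and 1319, 1072 and 1445 CPM in the control libraries (log2 change 0.54, SE 0.19, adjusted p = 0.0477), without overlap. The count of 8 was 3 without depleted replicate 1, depleted replicate 3 or control replicate 2, and 4 without control replicate 3. Neutrophil markers summed to 5382 to 9882 CPM in control and 18527 to 33999 CPM in depleted libraries, with all 14 detected in both, and Rn18s-rs5 was at 16562 to 25106 CPM and 67052 to 105270 CPM. With Rn18s-rs5 as a covariate no member passed, and 78 of all genes did. Fibroblast markers summed to 3174 to 6312 CPM in control and 1899 to 2279 CPM in depleted libraries, resident macrophage markers to 1176 to 1959 CPM and 763 to 1132 CPM, and those of monocytes and macrophages to 13895 to 15356 CPM and 10169 to 12661 CPM. Cell cycle genes summed to 744 to 1376 CPM and 1769 to 1938 CPM. The part of these measures in the changes of the members was not tested.

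Between day 7 and day 10, the depleted bone cells changed in 9 members, 7 of them higher and 2 lower on day 10 (7.13% and 5.04% of all genes). Vegfa went from 14.6, 9.16, 13.9, 7.85 and 8.88 CPM on day 7 to 34.6, 32.7 and 42.2 CPM on day 10 (log2 change 1.75, SE 0.25, adjusted p = 0.000338). Slc16a1 went from 11.1, 4.21, 7.17, 9.77 and 3.15 CPM to 24.9, 21.3 and 23.9 CPM (log2 change 1.70, SE 0.32, adjusted p = 0.00224). For both genes the 3 libraries of day 10 lay above the 5 of day 7, and these calls held with each library left out. Hilpda (1.06), P4ha1 (1.02), the histone demethylase Kdm3a (0.85), Ndrg1 (0.68) and Pgk1 (0.55) rose as well, and Hk3 (-0.54) and Eno1 (-0.50) fell. The count of 9 was 6 without day 7 depleted replicate 2, 5 without day 7 depleted replicate 5 or day 10 depleted replicate 1, and 3 without day 10 depleted replicate 3. In the depleted libraries, fibroblast markers summed to 129 to 1488 CPM on day 7 and 1899 to 2279 CPM on day 10, erythroid markers to 38.6 to 185 CPM and 731 to 1044 CPM, and cell cycle genes to 2163 to 3104 CPM and 1769 to 1938 CPM. Their part in the changes of the members was not tested. In control bone cells no member passed the quasi-likelihood test between the days, and 0.0393% of all genes did. Of the members, 3 had an unadjusted p below 0.05 (9.91% of all genes did). DESeq2 called 1 member, and the quasi-likelihood test without a filter on low counts also called 1. The test of whether the change with depletion differed between the days of bone called no member and 0% of all genes. Of the members, 7 had an unadjusted p below 0.05 (12.5% of all genes did). DESeq2 called no member, whereas the quasi-likelihood test without a filter on low counts called 2.

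The opposite signs of bone and muscle on day 7 were tested directly, in a model of the 44 libraries of bone, muscle and skin. The change with depletion was lower in bone than in muscle for 22 of 35 members and higher for none, where 5.19% and 3.09% of all genes tested differed in these directions. The difference of the log2 changes was -3.32 for Egln3 (SE 0.87, adjusted p = 0.0126), -2.82 for Hilpda (SE 0.36, adjusted p = 2.05e-06) and -2.64 for Vegfa (SE 0.45, adjusted p = 0.000101). It was -2.41 for Slc16a3 (SE 0.34, adjusted p = 9.94e-06) and -2.29 for Bnip3 (SE 0.50). Each of 9 members was lower in depleted bone and higher in depleted muscle within its own tissue: Slc2a1, Aldoa, Tpi1, Eno1, Ldha, Slc16a3, Egln3, Vegfa and Mif. The share of all genes with this pattern was not counted. The bone calls of Slc2a1, Aldoa, Eno1 and Egln3, and the muscle call of Egln3, were each lost without some single libraries, as given above. With each library left out 18 of the 22 calls held, that of Egln3 was lost without muscle depleted replicate 2, and those of Ankrd37, Hif1a and Higd1a were lost in 3 or more omissions each. Hk3 was not among the 22 and rose in both tissues. Neutrophil marker sums were higher in every depleted library than in every control library of muscle. In bone they overlapped between the arms, with a mean that was also higher after depletion (19038 against 10097 CPM). Resident macrophage sums were lower after depletion in both tissues. Cell cycle sums moved in opposite directions, without overlap in either tissue. In bone they ran from 2163 to 3104 CPM after depletion, against 858 to 1270 CPM for controls. In muscle they ran from 390 to 457 CPM, against 483 to 610 CPM. The part of these measures in the opposite signs was not tested.

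**Figure D4:**
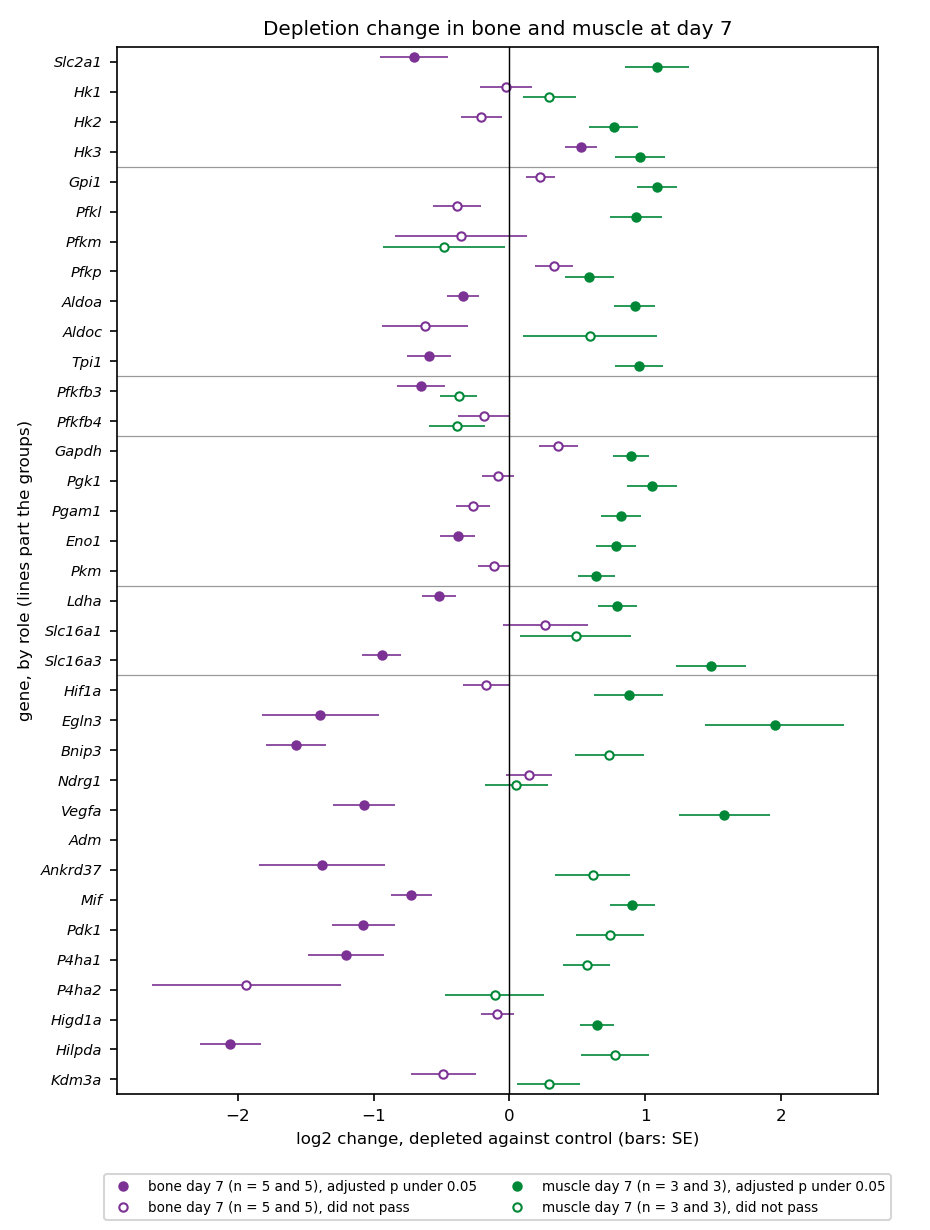
Log2 change, depleted minus control, with its SE, of the members in bone (one color) and muscle (the other) on day 7, ordered by role. Hilpda lies at -2.05 in bone, Slc16a3 lies at -0.94 in bone and 1.48 in muscle, and Hk3 lies above 0 in both.

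In skin, Hk3 was the member with the clearest change. On day 4 it was at 80.3, 73.2, 75.6 and 96.5 CPM in the depleted and 42.3, 34.6, 22.9 and 36.3 CPM in the control libraries (log2 change 1.27, SE 0.18, adjusted p = 0.000118). On day 7 it was at 50.9, 51.6, 47.9 and 69.7 CPM in the depleted and 25, 26, 33.7 and 29.2 CPM in the control libraries (log2 change 0.96, SE 0.18, adjusted p = 0.00142). All 4 depleted libraries lay above all 4 control libraries on each day, and both calls held with each library left out. Pkm was at 947, 1197, 1213 and 1038 CPM in the depleted and 858, 790.0, 724 and 639 CPM in the control libraries on day 4 (log2 change 0.55, SE 0.14, adjusted p = 0.0241), without overlap, and this call was lost without depleted replicate 2 or 3 or control replicate 2, 3 or 4, which left Hk3 alone. On day 7, Pfkp (ENSMUSG00000021196, GRCm38 chromosome 13, 6579768 to 6648777) was at 164, 152, 122 and 157 CPM in the depleted and 114, 88.4, 90.9 and 82.3 CPM in the control libraries (log2 change 0.66, SE 0.16, adjusted p = 0.0122), and its call held with each library left out. The median log2 change of the 35 members was 0.16 on day 4 and -0.09 on day 7. On day 7, Vegfa was at 47.8, 75.3, 56.3 and 36.3 CPM in the depleted and 76.3, 83.2, 102 and 78 CPM in the control libraries, so the depleted libraries lay just below the control ones, but the change did not pass (log2 change -0.66, SE 0.27, adjusted p = 0.179). Egln3, at 7.3 to 72.8 CPM in depleted and 21.3 to 42.1 CPM in control libraries, overlapped between the arms. On day 4, resident macrophage markers summed to 4192 to 6489 CPM in control and 2437 to 3836 CPM in depleted libraries (5 of 11 tested lower), and neutrophil markers to 298 to 553 CPM, with Ly6g at 0, and 565 to 734 CPM. On day 7 the neutrophil sums overlapped, at 1045 to 1904 CPM and 301 to 1849 CPM. Keratinocyte markers summed to 20.8 to 50.02 CPM in control and 5.89 to 8.22 CPM in depleted libraries on day 7, and erythroid markers to 1344 to 2018 CPM and 112 to 448 CPM. The part of these measures in the changes of the members was not tested.

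With time in skin, Hif1a was lower on day 7 than on day 4 in both arms, with a log2 change of -0.66 (SE 0.15) in control and -0.80 (SE 0.15) in depleted cells. The control call was lost without day 4 control replicate 3 or day 7 control replicate 1 or 4, and 3 members passed without day 4 control replicate 1. No other member passed in control cells, where 1.42% of all genes were higher and 0.848% lower on day 7. In depleted cells Pkm was lower as well (-0.60), and Adm was higher (0.249, 1.3, 0.276 and 1.25 CPM on day 4 and 8.92, 2.3, 3.19 and 1.65 CPM on day 7, log2 change 2.33, SE 0.63), with 1.36% and 1.25% of all genes called. Of the 3 calls in depleted cells, 1 held with each library left out, and the level of Adm on day 4 was close to the floor. The change with depletion differed between the days of skin for no member by the quasi-likelihood test (0.848% of all genes). Of the members, 3 had an unadjusted p below 0.05 (10.9% of all genes did). DESeq2 called 1, and so did the quasi-likelihood test without a filter on low counts. Set against skin on day 7, the change in muscle was higher for 9 members and lower for none (2.26% and 0.516% of all genes): Vegfa (2.26), Slc16a3 (1.86), Aldoa (1.25), Gpi1 (1.21), Tpi1, Mif, Hk2, Pkm and Eno1. Without depleted replicate 1 of skin day 7 this count was 14, and over all single omissions it ran from 6 to 14. With each library left out, 5 of the 9 calls held. The change in bone was lower than that in skin for 4 members and higher for none (5.58% and 3.79%): Ankrd37 (-2.20), Hilpda (-1.66), P4ha1 (-1.02) and Ldha (-0.61). This count of 4 was 2 without bone depleted replicate 2, 4 or 5, bone control replicate 1 or 4, skin depleted replicate 1 or 2, or skin control replicate 2, 3 or 4. On day 4, the change in muscle was lower than that in skin for Hk3 (-1.18, SE 0.24) and Pkm (-0.80, SE 0.19) and higher for none (0.105% and 0.16%). Neither passed without muscle depleted replicate 2 or muscle control replicate 1. Without muscle depleted replicate 3 only Pkm passed, and without muscle depleted replicate 1, muscle control replicate 2 or 3, skin depleted replicate 2, 3 or 4, or skin control replicate 2, 3 or 4 only Hk3 did.

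In heart, the collagen prolyl hydroxylases P4ha1 and P4ha2 (ENSMUSG00000018906, GRCm38 chromosome 11, 54100095 to 54131665), which have no copies, fell with depletion on both days. P4ha2 was at 4.24, 3.83 and 5.82 CPM in the depleted and 14.4, 9.36 and 19.8 CPM in the control libraries on day 4 (log2 change -1.60, SE 0.29, adjusted p = 0.000952) and at 3.21, 4.56 and 3.43 CPM in the depleted and 12.9, 11.7 and 11.8 CPM in the control libraries on day 7 (log2 change -1.69, SE 0.27, adjusted p = 0.00264). P4ha1 was at 99.5, 78.9 and 119.5 CPM in the depleted and 155, 137 and 197 CPM in the control libraries on day 4 (log2 change -0.70, SE 0.16, adjusted p = 0.00695) and at 57.8, 63.8 and 51.1 CPM in the depleted and 96.9, 109 and 126 CPM in the control libraries on day 7 (log2 change -0.94, SE 0.16, adjusted p = 0.00362). Every depleted library was below every control library in all 4 of these comparisons, and the calls held with each library left out except that of P4ha1 on day 4, lost without control W4. Fibroblast markers summed to 196 to 249 CPM in control and 149 to 168 CPM in depleted libraries on day 4, and to 232 to 729 CPM and 359 to 575 CPM on day 7, with none of 7 tested called on either day. Neutrophil markers summed to 150.6 to 255.9 CPM in control, with Elane at 0, and 357 to 694 CPM in depleted libraries on day 7, where 4 of 12 tested rose. Markers of monocytes and macrophages summed to 29442 to 35650 CPM in control and 22722 to 27952 CPM in depleted libraries on day 7. Those of T and NK cells summed to 2.99 to 7.22 CPM and 16.1 to 54.3 CPM on day 4. The part of these cell types in the changes of the members was not tested. The median log2 change of the 34 members on day 7 was 0.06.

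The other 9 members that fell in heart on day 4 all have copies, and the control libraries of that day are the 3 that stood apart. Gapdh had the largest of these changes (log2 change -6.37, SE 0.27, adjusted p = 1.31e-12). Pgk1 was at 14.6, 15.3 and 17.3 CPM in the depleted and 42.1, 32.4 and 46.7 CPM in the control libraries (log2 change -1.35, SE 0.19, adjusted p = 7.41e-05), Higd1a at 62.3, 47.9 and 65.8 CPM in the depleted and 108, 116 and 138 CPM in the control libraries (log2 change -1.03, SE 0.14, adjusted p = 3.98e-05) and Mif at 217, 183 and 248 CPM in the depleted and 417, 409 and 495 CPM in the control libraries (log2 change -1.02, SE 0.13, adjusted p = 1.31e-05). The arms of these genes did not overlap. Smaller changes, also without overlap, were measured for 5 enzymes. Ldha was at 710.2 to 897 CPM in depleted and 979.9 to 1282 CPM in control libraries (log2 change -0.48, SE 0.12, adjusted p = 0.0156), which is the step from pyruvate to lactate. Pkm was at 1097 to 1364 CPM in depleted and 1445 to 1844 CPM in control libraries (log2 change -0.42, SE 0.13, adjusted p = 0.047). Eno1 was at 441 to 513 CPM in depleted and 593 to 675 CPM in control libraries (log2 change -0.40, SE 0.11, adjusted p = 0.024). Gpi1 was at 208 to 238 CPM in depleted and 280.3 to 302 CPM in control libraries (log2 change -0.40, SE 0.10, adjusted p = 0.0137). Pgam1 was at 5.34 to 6.17 CPM in depleted and 8.04 to 13.3 CPM in control libraries (log2 change -0.92, SE 0.29, adjusted p = 0.045). Without the genes that have copies 2 of 21 members were called, P4ha1 and P4ha2, in place of 11, and 8.26% of all tested genes without copies were called. The count of 11 was also 6 without depleted F1, 7 without depleted F2 and 5 without control W4, and the calls of Gapdh, Higd1a, Mif, P4ha2 and Pgk1 held with each library left out. That of Eno1 was lost without any 1 of depleted F1 and F2 and control W4. That of Gpi1 was lost without any 1 of depleted F1 and control W4. That of Ldha was lost without any 1 of depleted F1 and F2 and control W4. That of P4ha1 was lost without control W4. That of Pgam1 was lost without any 1 of depleted F1, F2 and F3 and control W3 and W4. That of Pkm was lost without any 1 of depleted F1 and F2 and control W1, W3 and W4. None of the 5 glycolytic genes of the lower steps passed on day 7. The change with depletion was higher on day 7 than on day 4 for 6 members, Gpi1, Gapdh, Pgk1, Pkm, Mif and Higd1a, and lower for none (3.21% and 0.882% of all genes), and all 6 have copies. How the reads of the heart day 4 control libraries were assigned was not tested.

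Between day 4 and day 7, most members that changed in heart fell, in both arms. In control cells 18 of 34 were lower and 2 higher on day 7 (16.9% and 15% of all genes), and in depleted cells, whose libraries are not those that stood apart, 13 were lower and 3 higher (13.7% and 13.7%). Of the 21 tested members without copies, 8 were called in each arm, against 29.4% of tested genes without copies in control and 27.1% in depleted cells, and 7 in each arm where the fit left out the genes with copies. The arms shared 12 lower members and 2 higher ones, Pfkm and Pfkfb4. Slc16a3 was at 208, 211 and 293 CPM on day 4 and 62.2, 98.7 and 65 CPM on day 7 in control cells (log2 change -1.65, SE 0.22), and at 203, 162 and 234 CPM and 55.9, 85.2 and 78.6 CPM in depleted cells (log2 change -1.46, SE 0.22). Hif1a fell by 1.05 in control and fell by 0.88 in depleted cells, and Slc2a1 fell by 0.99 and fell by 0.75 on the log2 scale. The days of these genes did not overlap in either arm. The cells of day 7 thus held less RNA of the lactate exporter, the glucose transporter and the oxygen-regulated factor in each arm. Neutrophil marker sums were lower on day 7 as well in control cells, at 569.5 to 768.6 CPM on day 4 and 150.6 to 255.9 CPM on day 7, and overlapped between the days in depleted cells, at 628.9 to 674.4 CPM and 357 to 694 CPM. Resident macrophage markers summed to 7460 to 8343 CPM on day 4 and 12435 to 14230 CPM on day 7 in control cells, and to 6678 to 8720 CPM and 9425 to 13362 CPM in depleted cells. Cell cycle genes summed to 976 to 1198 CPM and 600.1 to 681.8 CPM in control, and to 968 to 1064 CPM and 545 to 674 CPM in depleted cells. The part of these measures in the changes of the members was not tested.

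**Figure D5:**
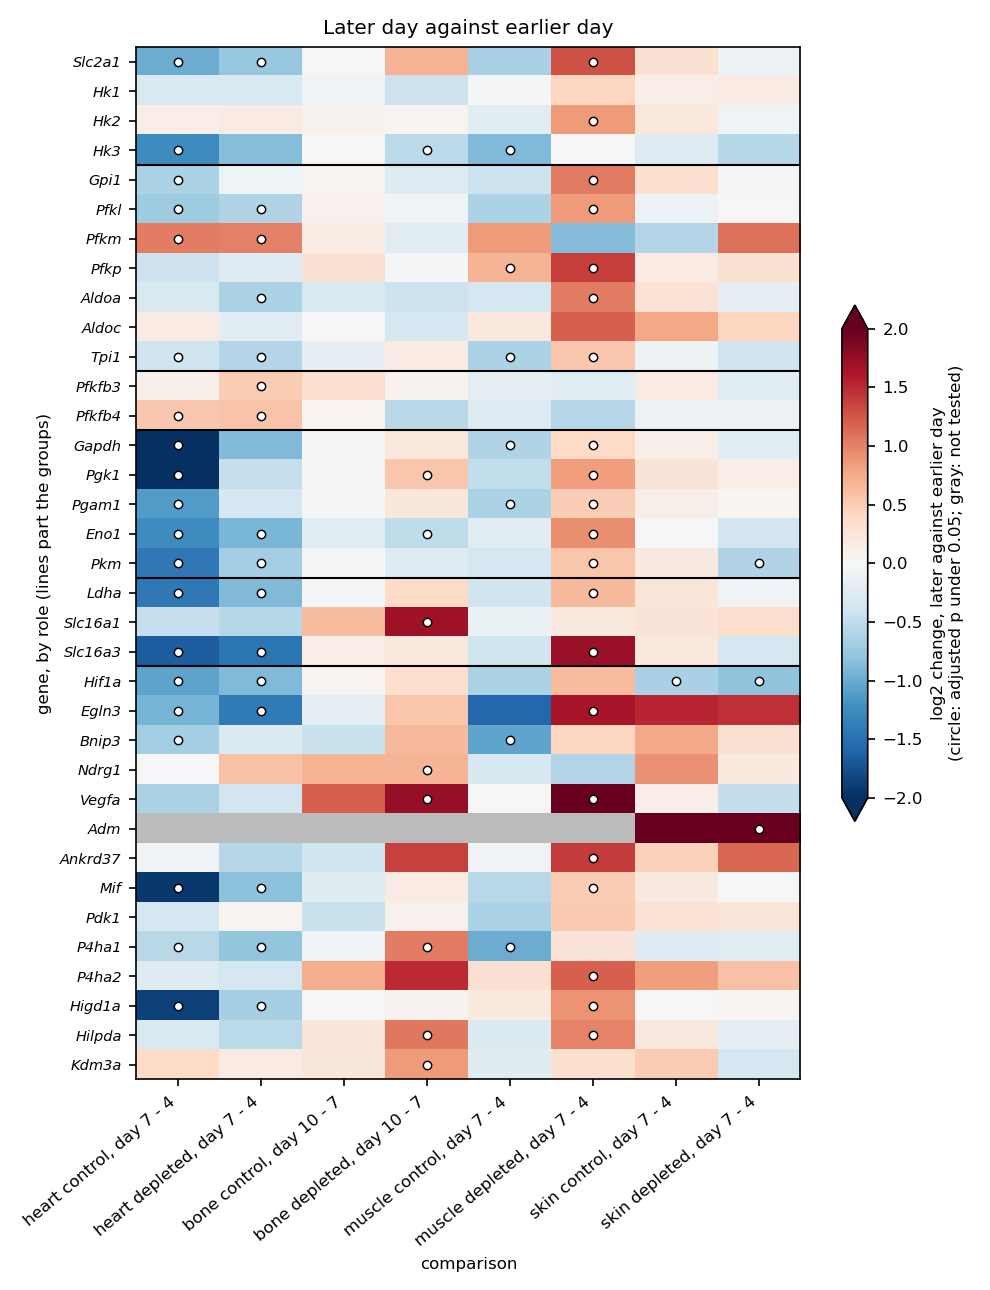
Log2 change, later minus earlier day, of the 35 members (one line each, ordered by role) in each tissue and arm (columns). The color scale ends at 2 in either direction, circles mark an adjusted p below 0.05 and gray marks Adm where it was not tested. Heart shows 18 lower members in control and 13 in depleted cells, and depleted muscle shows 21 higher members.

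Among control cells of bone, muscle and skin on day 7, most members that differed between skin and another tissue were higher in skin. There, 21 of 35 members were lower in muscle than in skin and none was higher (6.76% and 5.17% of all genes). Egln3 was at 4.32 ± 0.735 CPM in muscle (SD, n = 3) and 34.1 ± 9.21 CPM in skin (SD, n = 4), with a log2 difference of -3.00 (SE 0.66). Vegfa was at 16.2 ± 6.11 CPM in muscle and 84.9 ± 11.9 CPM in skin (-2.42, SE 0.33), and Bnip3 and Ndrg1 differed by -2.18 and -1.99. Bone was lower than skin in 16 members and higher in 1, Hk3 (14.1% and 11.5%). Hilpda was at 62.6 ± 15.6 CPM in bone (SD, n = 5) and 206 ± 41.7 CPM in skin (SD, n = 4), with a log2 difference of -1.82 (SE 0.22). Bone was higher than muscle in 9 members and lower in 1, Pfkfb3 (6.28% and 7.32%), the 9 being Hk3, Gpi1, Aldoa, Gapdh, Pgk1, Eno1, Pkm, Ldha and Slc16a3. This count of 10 was 6 without muscle control replicate 2 and 3 without muscle control replicate 3. Of the 9 higher in bone, all but Hk3 and Slc16a3 have copies. On day 4, Vegfa (-2.27), Hilpda (-1.33), Hif1a (-1.23) and Pkm (-0.41) were lower and Hk3 (0.91) higher in muscle than in skin (6.77% and 5.51% of all genes). In control cells of day 7, neutrophil markers summed to 166 to 213 CPM in muscle, 1045 to 1904 CPM in skin and 6054 to 13990 CPM in bone, and their part in these differences was not tested. Tissue and the way cells were freed from it go together in this design and cannot be told apart.

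The 6 members without a call for depletion were of several kinds. Hk1 ranged from 20.3 to 65.9 CPM over the 56 libraries. Pfkm, the muscle-type phosphofructokinase, stayed between 0.324 and 8.13 CPM, Aldoc, the brain-type aldolase, between 0.934 and 27 CPM, and Adm between 0 and 8.92 CPM. Ndrg1, a stress-induced protein of the cytoplasm, ranged from 12.5 to 99 CPM and Kdm3a from 6.88 to 36.6 CPM, and both changed with time or tissue as given above.

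Genes of the same pathways outside the 35 were taken from lists set by function. Of 30 further hypoxia and HIF pathway genes, 6 of 24 tested rose and none fell in muscle on day 7. Of all genes, 4.67% were called higher and 3.92% lower there. Among the 6 were Ak4 (2.31), an adenylate kinase of mitochondria, Ero1a (1.74), an oxidase of the endoplasmic reticulum, and Lox (1.56), which cross-links collagen. In bone on day 7, none rose and 4 fell, where 11% of all genes were called higher and 12.6% lower. Among the 4 were Bhlhe40 (-1.37), Fam162a (-1.10) and the lipid droplet protein Plin2 (-0.79). On day 10 Plin2 (-1.53) and the lipase inhibitor Angptl4 (-1.51) fell, where 8.22% of all genes were called lower. In heart on day 4, none of 23 tested rose and 4 fell, Ddit4 (-1.85), Epas1 (-1.24), Bnip3l (-1.23) and Egln1 (-0.88). There, 4.25% of all genes were called higher and 6.85% lower. Of 22 further glycolysis genes and isoenzymes, 2 of 14 tested rose in muscle on day 7, the glucose transporter Slc2a3 (2.82) and Pgm1 (1.10), and in bone on day 7 Adpgk (0.95), a glucokinase that uses ADP, rose while Ldhb (-0.89), Galm (-0.84) and Pgm1 (-0.61) fell. Slc2a3 fell in skin on day 7 (-1.70). The shares of all genes given here for muscle and bone on day 7 apply to these glycolysis genes as well. The numbers in parentheses after gene names are log2 changes.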

How the data were processed

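RNA from sorted monocytes and macrophages was made into 3′-end libraries with unique molecular identifiers, per the labels' protocols. The authors deposited whole counts per gene for heart and estimated counts for bone, muscle and skin, of which 19.37% of values above 0 lay more than 0.01 from a whole number, and these were rounded. STAR, featureCounts and limma, with Salmon for heart, and the builds GRCm38 (heart) and GRCm38 and GRCm39 (other tissues) are named per the submitters' processing notes, whereas the sources used here give no versions or settings. Groups came from the labels. Members and lists were chosen with earlier results of these data known. One row of Aldoa with no counts was left out.

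Counts were fitted with edgeR 4.0.16 (R 4.3.3, limma 3.58.1; TMM, its default filter on low counts, robust quasi-likelihood) over the 4 groups of each tissue, and over the 12 groups of 44 libraries for differences between tissues, so levels set across tissues come from separate scalings. Log2 changes, computed from the deposited counts, carry SE = |log2 change| divided by the square root of F. Adjusted p-values are Benjamini-Hochberg over all genes tested. Named genes were all members, in full up to 12 called members per comparison whose groups did not overlap and members called in several tissues, and at most 4 called pathway genes per list with at least 5 CPM, of which 1 is not reported here. The fit was tested on simulated data. Alternatives were DESeq2 1.42.0, no filter, a replicate block, an Rn18s-rs5 covariate (for muscle and skin a choice made after seeing the data), genes with copies left out and each library left out. Replicates of a group differed by more than counting noise, with a chi-square of 5.14 to 27.9 per degree of freedom.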

Additional observations from a re-analysis of the deposited data

Results flagged for a closer look

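Of 210 groups of 4 or 5 libraries of bone and skin examined member by member, 21 held a library whose value stood far from the others relative to the spread of its group (Dixon's criterion), where chance gives about 1 in 20. Bone day 7 depleted replicate 3 stood apart at 44.5 CPM for Hk2, 146 CPM for Pgam1 and 1.69 CPM for Adm. Bone day 7 control replicate 2 stood apart at 8.13 CPM for Pfkm. Bone day 7 control replicate 3 stood apart at 1855 CPM for Aldoa. Bone day 7 control replicate 4 stood apart at 341 CPM for Pgk1, 30.6 CPM for Egln3, 55.9 CPM for Ankrd37 and 89.7 CPM for Hilpda. Skin day 7 depleted replicate 4 stood apart at 69.7 CPM for Hk3 and 16.7 CPM for Pdk1. Skin day 4 depleted replicate 2 stood apart at 59.3 CPM for Pfkl, 361 CPM for Pgk1, 459 CPM for Slc16a3, 171 CPM for Bnip3 and 23.3 CPM for Ankrd37. Skin day 7 control replicate 4 stood apart at 84 CPM for Pfkfb3. Skin day 7 depleted replicate 1 stood apart at 27 CPM for Pfkfb4. Skin day 7 depleted replicate 2 stood apart at 10.2 CPM for Slc16a1. Skin day 4 control replicate 1 stood apart at 149 CPM for Bnip3 and 60.1 CPM for Ndrg1. Bone day 7 control replicate 4 and skin day 4 depleted replicate 2 each stood apart for 4 or more members at once, and the calls lost without the first are given above.

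The change with depletion itself differed between days or between tissues for 62 pairs of member and comparison by an edgeR quasi-likelihood test of the difference, adjusted by the Benjamini-Hochberg method, and the values are differences of log2 changes. In heart, day 7 minus day 4, the difference was 0.54 for Gpi1, 5.92 for Gapdh, 1.71 for Pgk1, 0.75 for Pkm, 1.12 for Mif and 1.21 for Higd1a. In muscle, day 7 minus day 4, the difference was 1.91 for Slc2a1, 1.06 for Hk2, 1.47 for Gpi1, 1.49 for Pfkl, 1.37 for Aldoa, 1.17 for Tpi1, 1.00 for Gapdh and 1.32 for Pgk1. In the same comparison it was 1.12 for Pgam1, 1.14 for Eno1, 0.89 for Pkm, 1.05 for Ldha, 2.14 for Slc16a3, 3.21 for Egln3, 1.48 for Bnip3 and 2.51 for Vegfa. In the same comparison it was 1.06 for Mif, 1.25 for P4ha1 and 0.70 for Higd1a. For bone minus muscle on day 7, the difference was -1.77 for Slc2a1, -0.96 for Hk2, -0.85 for Gpi1, -1.30 for Pfkl, -1.25 for Aldoa, -1.53 for Tpi1, -1.12 for Pgk1 and -1.08 for Pgam1. In the same comparison it was -1.15 for Eno1, -0.74 for Pkm, -1.30 for Ldha, -2.41 for Slc16a3, -1.03 for Hif1a, -3.32 for Egln3, -2.29 for Bnip3 and -2.64 for Vegfa. In the same comparison it was -1.98 for Ankrd37, -1.61 for Mif, -1.80 for Pdk1, -1.76 for P4ha1, -0.72 for Higd1a and -2.82 for Hilpda. For bone minus skin on day 7, the difference was -0.61 for Ldha, -2.20 for Ankrd37, -1.02 for P4ha1 and -1.66 for Hilpda. For muscle minus skin on day 7, the difference was 0.92 for Hk2, 1.21 for Gpi1, 1.25 for Aldoa, 1.00 for Tpi1, 0.88 for Eno1, 0.89 for Pkm, 1.86 for Slc16a3 and 2.26 for Vegfa. In the same comparison it was 0.95 for Mif. For muscle minus skin on day 4, the difference was -1.18 for Hk3 and -0.80 for Pkm. In heart, the 6 members have copies, and the day 4 control libraries are those that stood apart.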

How the results depend on the processing

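Of 354 counts of called members compared with an alternative, 282 stayed within 1.5 times, and of 3004 member values 2543 kept their side of the threshold, 461 no longer passed and 0 changed sign. Without a filter on low counts, the count of called members was 5 in heart day 7, 7 in muscle day 4, 4 in skin day 4 and 6 in skin day 7 for depletion. In that setting it was 1 in control bone, 14 in control muscle and 2 in control skin for time, 2 in bone and 1 in skin for depletion by time, and 17 on day 7 and 6 on day 4 for muscle against skin. DESeq2 called 4 in heart day 7, 1 in muscle day 4, 1 in control bone for time and 1 in skin for depletion by time. With genes that have copies left out, 2 were called in heart day 4, 7 in each heart arm for time and 0 in heart for depletion by time. With Rn18s-rs5 as a covariate, 6 were called in bone day 7, 0 in bone day 10 and 11 in muscle day 7. The cause of these differences was not tested, beyond the smaller number of genes where copies were left out.

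With each library left out in turn, the count for depletion ran from 5 to 11 on day 4 and 2 to 3 on day 7 of heart, 11 to 18 on day 7 and 3 to 9 on day 10 of bone, 0 to 0 on day 4 and 17 to 21 on day 7 of muscle, and 1 to 2 on day 4 and 2 to 3 on day 7 of skin. For time it ran from 14 to 20 and 13 to 16 in control and depleted heart, 0 to 0 and 3 to 11 in bone, 3 to 6 and 15 to 24 in muscle, and 0 to 3 and 2 to 3 in skin. For depletion by time it ran for heart from 4 to 7, for bone from 0 to 0, for muscle from 12 to 21 and for skin from 0 to 1. Between tissues of control cells it ran from 3 to 12 for bone against muscle, 12 to 19 for bone against skin, and 17 to 23 on day 7 and 4 to 5 on day 4 for muscle against skin. For the change with depletion it ran from 18 to 22, 2 to 6, 6 to 14 and 0 to 2 in the same order.

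Labels number the replicates of bone, muscle and skin, and nothing in the labels says that a number marks a shared day. The arms differ in genotype, so same-numbered libraries of the arms cannot share an animal. Correlations of the deviations of same-numbered libraries ran from -0.134 to 0.195 and were above 0 in 18 of 22 pairs, and the best match had the same number in 12 of 22, where about 6 would without pairing. Since not every pair exceeded 0.1, the main fits did not pair the libraries by number. Paired libraries can also correlate by less than 0.1, so this rule cannot tell whether a number marks a shared day. With the replicate block, 17 members were called for depletion in bone day 7, 8 in bone day 10, 0 in muscle day 4, 21 in muscle day 7, 2 in skin day 4 and 2 in skin day 7. This block gave each number the same effect on both days of a tissue. These counts therefore cannot tell how pairing the arms within a day would change the calls. Heart columns carry no such numbers.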

Other observations

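Genes of neighbouring metabolism were read from 3 further lists. Acod1, which makes the antimicrobial metabolite itaconate in activated macrophages, rose with depletion in 5 of 8 comparisons: heart day 7 (log2 change 2.84), bone day 7 (1.07), bone day 10 (2.49), muscle day 7 (3.61) and skin day 4 (1.84). Of the 30 genes of pyruvate entry, the TCA cycle and itaconate that hold it, 2 of 28 tested rose and none fell in muscle on day 7, the other one being Mdh2 (0.65), where 4.67% of all genes tested were called higher. In heart, Acod1 stood at a mean of 6.84 CPM in control and 49.2 CPM in depleted cells on day 7. Of the 7 genes of the pentose phosphate pathway, which branches from glucose 6-phosphate and supplies NADPH, 3 rose and none fell in bone on day 7 (Rpia, 1.27; G6pdx, 0.75; Tkt, 0.55), where 11% of all genes tested were called higher. In bone on day 10, 4 rose and none fell (8.95% of all genes tested were called higher). In muscle on day 7, 2 rose (Tkt, 0.63, and Taldo1, 0.62) and none fell, where 4.67% of all genes tested were called higher. Of 30 nuclear genes of the respiratory chain, 7 rose and none fell in muscle on day 7, among them Cox8a (0.65) and Ndufb5 (0.51). The share of all genes called higher there was the same 4.67%. A gene is said to rise or fall where edgeR's quasi-likelihood test gave an adjusted p below 0.05.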
